A study of Sus scrofa with 6 samples.

Results

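The genes described here bring pyruvate into the mitochondrion and run the tricarboxylic acid (TCA) cycle. They are a list of 10 genes named by symbol and chosen with earlier results of these data known. The list holds the mitochondrial pyruvate carrier (MPC1, MPC2) and pyruvate dehydrogenase (PDHA1) with its kinases (PDK1, PDK4). Pyruvate carboxylase (PC) and the cycle enzymes CS, IDH2, OGDH and MDH2 complete it. Of the 10, 9 matched a row of the 20731 genes in the deposited table through their pig Ensembl identifiers, and 8 were among the 10950 genes tested, those whose 6 libraries averaged 1 FPKM or more. MPC1 had no pig Ensembl identifier among the symbols used, so its row, if any, could not be found. PDK4 was below the minimum level.

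The RNA came from pig Sertoli cells at an immature stage. Sertoli cells are the somatic cells of the seminiferous tubule that surround and feed the germ cells. The labels name 3 Control libraries and 3 MT libraries. The MT cells had received 10 nM melatonin, the night hormone of the pineal gland, for 36 h, and no solvent or time is given for the Control cells. No animal, age or genotype beyond the cell type is given for either group, and nothing says whether replicates came from separate cultures, so p-values speak of the spread among these libraries alone, and that spread may be technical.

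Pyruvate is the end product of glycolysis. It crosses the inner mitochondrial membrane through a carrier built of MPC1 and MPC2, and then has a choice of routes: pyruvate dehydrogenase turns it into acetyl-CoA, and pyruvate carboxylase turns it into oxaloacetate. The PDK kinases phosphorylate the PDHA1 subunit and switch the dehydrogenase off, and phosphatases switch it back on. Sertoli cells are known for converting much of their pyruvate to lactate, which they export to germ cells, so the genes at this branch point belong to the choice between oxidation and export. The deposited values are transcript levels and hold no measure of phosphorylation or flux.

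The libraries held 19579279 to 21500665 reads, as recovered from the steps between low FPKM values. Control 3 stood apart: it lay at 40.4 on the main principal component, against -22.0 to 7.5 for the other 5 libraries, and its correlation across genes was 0.938 and 0.939 with the other Control libraries but 0.952 to 0.975 with the MT libraries (genes are not independent replicates). The 13 mRNAs of the mitochondrial genome took 2.72% of its reads and 4.35% to 5.56% in the other libraries. By correlation Control 3 thus lay closer to each library labelled MT than to its own group. The second component held 16.5% of the variance, against 68.2% for the main one. There Control 3 lay at 12.1, beside 6.5 and 12.3 for Control 1 and 2, and MT at -13.7 to -7.6. No value in the table settles its label, so the values with and without Control 3 both depend on that label. Differences between the groups are given over 6 libraries, and also without Control 3 for the genes and counts that turn on it. Control 3 was singled out from these same values. The p-values and counts without it are therefore a description and not a test. Of 15 Sertoli markers 12 matched a row and 8 had a mean of at least 1 FPKM, among them SOX9, WT1 and AMH, while INHA, DHH, DMRT1 and NR5A1 were under 0.1 FPKM in every library. The Sertoli markers summed to 3025 to 3550 FPKM in Control against 3415 to 4011 in MT. Markers of peritubular myoid cells (5 of 5 matched) summed to 160.3 to 264.8 FPKM in Control, where Control 3 was highest, and to 161.7 to 194.2 in MT. DES and TAGLN of that list had a mean of at least 1 FPKM, and MYH11 was under 0.1 FPKM. Leydig (3.93 to 4.39 in Control, 3.74 to 4.87 in MT), macrophage (9.38 to 12.2 and 11.6 to 13.3), germ cell (0.78 to 1.39 and 1.28 to 1.53) and endothelial markers (0.16 to 0.31 and 0.15 to 0.32) were low. Of these lists, 4 of 7, 3 of 4, 3 of 5 and 2 of 3 markers matched, and STAR, CYP11A1, CD68, CD14 and UCHL1 had a mean of at least 1 FPKM. CYP17A1, HSD17B3, CSF1R, DDX4 and CDH5 were under 0.1 FPKM in every library. In bulk RNA, fewer cells of a type and less RNA per cell cannot be told apart, and the part of other cells in the results below was not tested.

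No gene of pyruvate entry or of the cycle on the list passed the test between MT and Control. In limma, 0 of the 8 tested members had an adjusted p under 0.05 and 0 had an unadjusted p under 0.05, with 4 members higher and 4 lower in MT. Their differences on the log2(FPKM + 1) scale ran from -0.14 to 0.07 with a median of -0.03, beside a median of 0.02 over all 10950 tested genes. Without Control 3 the median of the members was 0.05, beside -0.00 over all tested genes. The background was as empty: 0 tested genes (0%) passed an adjusted p of 0.05, with 517 genes (4.72%) under an unadjusted p of 0.05, and limma voom on the recovered reads also passed 0, with 495 under an unadjusted p of 0.05. Without Control 3, 1194 genes (10.9%) passed, and still 0 of the 8 members. PDK1 had the smallest adjusted p of the members there (0.072) and was the 1 member of 8 with an unadjusted p under 0.05, as had 36.2% of all tested genes.

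**Figure D1:**
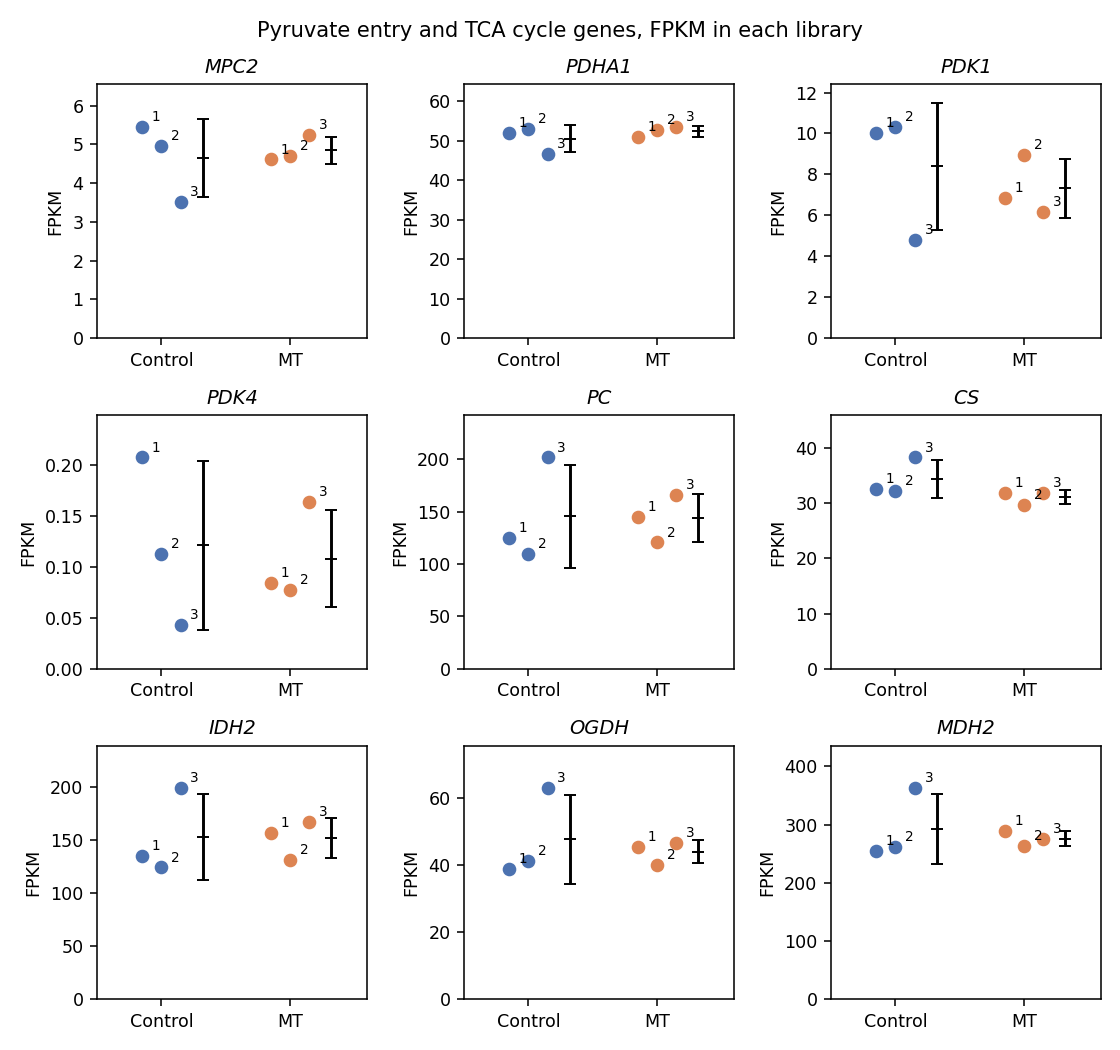
FPKM (vertical axis, from 0, a separate scale for each gene) of the 9 matched members in the 3 Control and 3 MT libraries; points carry the replicate number, and the bar beside them is the mean ± SD (n = 3). Control 3 is the highest or the lowest of the 6 libraries in every panel, and the MT points lie inside or close to the range of the Control points.

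Of the carrier, MPC2 could be followed. MPC2 (ENSSSCG00000006304, chromosome 4, 83069914 to 83091687 of Sscrofa11.1) was at 5.46, 4.95 and 3.51 FPKM in Control 1, 2 and 3, and at 4.61, 4.70 and 5.25 in MT 1, 2 and 3. The MT values lay inside the Control range, and Control 3 was the lowest library. The means were 4.64 ± 1.01 FPKM in Control against 4.86 ± 0.35 in MT (SD, n = 3), for a log2 difference of 0.07 (SE 0.16) that was -0.08 (SE 0.09) without Control 3. Between 374 and 553 reads stood behind each value.

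PDHA1, the catalytic subunit that carries the phosphorylation sites of pyruvate dehydrogenase, was the most even member. PDHA1 (ENSSSCG00000023643, chromosome X, 15699924 to 15718908) was at 52.0, 53.0 and 46.7 FPKM in Control 1 to 3 and at 50.9, 52.8 and 53.6 in MT 1 to 3. The highest library stood 1.15 times above the lowest, and 3 MT and 2 Control libraries lay within 50.9 to 53.6 FPKM. The log2 difference was 0.05 (SE 0.10), with a 95% interval of -0.18 to 0.29. On the log2(FPKM + 1) scale, this interval spans folds of 0.88 to 1.22. Without Control 3 the difference was -0.00 (SE 0.06), with an interval of -0.15 to 0.15.

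PDK1, a kinase that inactivates pyruvate dehydrogenase, varied most among the tested members. PDK1 (ENSSSCG00000015958, chromosome 15, 78608394 to 78650958) was at 10.0, 10.3 and 4.80 FPKM in Control 1 to 3 and at 6.86, 8.93 and 6.16 in MT 1 to 3. All 3 MT libraries lay between Control 3 and the other Control libraries, so the groups overlapped only through Control 3. Over 6 libraries the log2 difference was -0.12 (SE 0.28, interval -0.79 to 0.54, limma adjusted p 1.0). Without Control 3 it was -0.44 (SE 0.14, interval -0.77 to -0.11), with an unadjusted p of 0.015 and a limma adjusted p of 0.072 over all genes tested. It was 0.02 without Control 1 and 0.04 without Control 2.

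PDK4, the kinase that is known to rise with fasting and fat oxidation in other tissues, was barely detected. PDK4 (ENSSSCG00000015334, chromosome 9, 75246956 to 75260134) was at 0.21, 0.11 and 0.043 FPKM in Control 1 to 3 and at 0.084, 0.077 and 0.16 in MT 1 to 3. These values rested on 18, 10 and 4 reads in Control and 8, 7 and 15 in MT, 32 and 30 reads in all. The exact 95% Poisson interval was 21.9 to 45.2 reads for the Control sum and 20.2 to 42.8 for the MT sum, and covers counting error only. No difference between the group sums was seen at this depth, and how large a difference could have been seen was not tested.

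Pyruvate carboxylase refills the cycle with oxaloacetate. PC (ENSSSCG00000012926, chromosome 2, 5566608 to 5587797) was at 125.2, 109.7 and 201.8 FPKM in Control 1 to 3 and at 144.9, 120.7 and 166.4 in MT 1 to 3. Control 3 was highest, and MT 2 lay between Control 1 and Control 2. The means were 145.6 ± 49.3 FPKM in Control against 144.0 ± 22.9 in MT (SD, n = 3). The log2 difference of 0.02 (SE 0.24) became 0.28 (SE 0.14, adjusted p 0.18 in limma) without Control 3 and -0.15 without Control 2.

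The balance of these genes within a library was compared directly. The ratio of PC to PDHA1, the carboxylating against the decarboxylating route, was 2.41, 2.07 and 4.32 in Control 1 to 3 and 2.85, 2.28 and 3.11 in MT 1 to 3. The PC transcript was thus the more abundant per length in all 6 libraries. The mean log2 ratio differed by -0.03 between MT and Control, with an exact two-sided permutation p of 0.90. The ratio of PDK1 to PDHA1, the kinase over its substrate, was 0.193, 0.195 and 0.103 in Control and 0.135, 0.169 and 0.115 in MT. Its mean log2 value differed by -0.19 (exact two-sided permutation p 0.60). Adjusted over the 2 ratios both p-values were 0.90, and 3 libraries against 3 cannot give a p below 0.10. Without Control 3 the differences were 0.29 for PC to PDHA1 and -0.49 for PDK1 to PDHA1.

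Citrate synthase joins acetyl-CoA to oxaloacetate and opens the cycle. CS (ENSSSCG00000035686, chromosome 5, 21669778 to 21700737) was at 32.6, 32.3 and 38.3 FPKM in Control 1 to 3 and at 31.9, 29.7 and 31.9 in MT 1 to 3. It was the only tested member whose groups did not overlap, 1 of 8, with every MT library below every Control library, where 4.99% of all tested genes were likewise lower in MT without overlap, 6.24% were higher and 1229 genes (11.2%) were either. The gap between Control 2 and MT 1 was small beside the spread within Control. The log2 difference was -0.14 (SE 0.11, limma adjusted p 1.0) and -0.06 (SE 0.07) without Control 3.

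IDH2, the mitochondrial NADP-linked isocitrate dehydrogenase, and MDH2, the malate dehydrogenase of the cycle, had the highest levels per length on the list. IDH2 (ENSSSCG00000001852, chromosome 7, 55654298 to 55675571) was at 135.2, 124.1 and 198.6 FPKM in Control 1 to 3 and at 156.8, 131.0 and 167.1 in MT 1 to 3. MDH2 (ENSSSCG00000025486, chromosome 3, 10120121 to 10132705) was at 255.7, 261.2 and 362.7 FPKM in Control against 289.6, 263.8 and 275.1 in MT. In both genes all 3 MT values lay inside the Control range, whose top was Control 3. The log2 differences were 0.01 (SE 0.20) for IDH2 and -0.07 (SE 0.16) for MDH2, and 0.22 (SE 0.11) and 0.09 (SE 0.07) without Control 3.

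OGDH, the decarboxylating subunit of the oxoglutarate dehydrogenase complex, also had its highest value in Control 3. OGDH (ENSSSCG00000016743, chromosome 18, 50609415 to 50684990) was at 39.0, 41.2 and 63.0 FPKM in Control 1 to 3 and at 45.5, 40.1 and 46.8 in MT 1 to 3. The log2 difference was -0.08 (SE 0.19) over 6 libraries and 0.13 (SE 0.08, adjusted p 0.29 in limma) without Control 3. Its paralog OGDHL was listed at 0 in 4 libraries and rested on at most 1 read in the others.

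**Figure D2:**
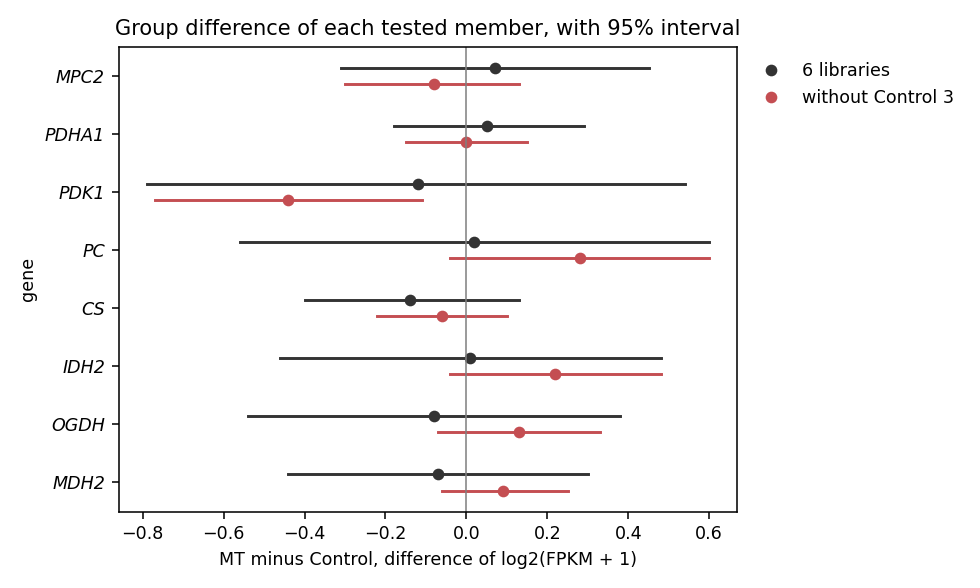
Difference of MT minus Control in log2(FPKM + 1) for the 8 tested members (horizontal axis) with its 95% interval from limma, over 6 libraries (dark) and without Control 3 (red). All 8 dark intervals cross 0, and without Control 3 the interval of PDK1, from -0.77 to -0.11, is the only one that does not, where 36.2% of all tested genes had an unadjusted p under 0.05.

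Ordered by mean FPKM over 6 libraries, a level per length, MDH2 (284.7) came first, then IDH2 (152.1), PC (144.8), PDHA1 (51.5), OGDH (46.0), CS (32.8), PDK1 (7.85), MPC2 (4.75) and PDK4 (0.11). IDH2 and PC overlapped in range, with IDH2 higher in 5 of 6 libraries, as did PDHA1 and OGDH, with PDHA1 higher in 5 of 6. PDK1 and MPC2 also overlapped in range, although PDK1 was higher in all 6 libraries. The other neighbours in this order did not overlap.

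Within the PDK family, which holds 4 genes, PDK1 made up 61.0%, 63.1% and 49.2% of the summed FPKM in Control 1 to 3 and 53.9%, 58.5% and 47.0% in MT 1 to 3. PDK3 gave most of the rest, 29.0% to 40.6%, and PDK2 gave 6.0% to 13.1%. PDK4 made up 0.4% to 1.3%. Between mitochondrial and cytosolic enzymes, MDH2 held 81.5% to 84.8% of the sum of MDH1 and MDH2 in every library, a steady share. IDH2 held 68.8% to 83.9% of the sum of IDH1 and IDH2, lowest in Control 2 and highest in Control 3. SUCLA2 and SUCLG2, which give succinyl-CoA synthetase its ATP-forming and GTP-forming versions, were nearly level, with SUCLA2 at 47.3% to 49.4% of their sum.

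Control 3 set the spread of these genes. It was the highest of the 6 libraries for 5 of the 8 tested members (PC, CS, IDH2, OGDH and MDH2) and the lowest for the other 3 (MPC2, PDHA1 and PDK1). Over all tested genes it was the highest library in 32.4% and the lowest in 41.7%, together 74.1%, so all 8 members stand beside a background that is already high. Against the mean of Control 1 and Control 2, its FPKM was 1.72 times as high for PC, 1.57 for OGDH, 1.53 for IDH2, 1.40 for MDH2 and 1.18 for CS. It was 0.89 times as high for PDHA1, 0.67 for MPC2 and 0.47 for PDK1. The carboxylase and the cycle enzymes on the list were thus higher in that library, and the carrier subunit, the dehydrogenase subunit and its kinase lower. Beyond the list the cycle genes were mixed: of 13 others tested, Control 3 was highest in 6 and lowest in 6. Of 9 other genes of the pyruvate dehydrogenase complex and its regulators, it was highest in 0 and lowest in 5. The median size of the deviation was 0.55 on the log2(FPKM + 1) scale for the 8 members and 0.42 for all tested genes. MT 1 lay on the side of Control 3, seen from the mean of Control 1 and Control 2, in 7 of the 8 members, and MT 2 and MT 3 in 5 each. Over all tested genes these shares were 82.4%, 68.9% and 79.3%.

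Enzymes built of several subunits were split in the same library. In succinate dehydrogenase, the flavoprotein SDHA was 1.46 times as high in Control 3 as in the mean of the other Control libraries, while SDHB, SDHC and SDHD were at 0.89, 0.70 and 0.78. In NAD-linked isocitrate dehydrogenase, IDH3B and IDH3G were at 1.52 and 1.65 times and the catalytic IDH3A at 0.89. In succinyl-CoA synthetase, the shared subunit SUCLG1 was at 1.16 times, and its partners SUCLG2 and SUCLA2 at 0.52 and 0.53. In the pyruvate dehydrogenase complex, PDHB was at 0.81, DLD, the subunit shared with the oxoglutarate complex, at 0.60 and PDHX, which anchors DLD, at 0.69, while DLAT was at 0.96. In each of these enzymes, the subunits thus differed in how far Control 3 stood from its group, in succinate dehydrogenase, NAD-linked isocitrate dehydrogenase and succinyl-CoA synthetase also in direction. Both directions were common in this library, which was highest in 32.4% of all tested genes and lowest in 41.7%. The median size of its deviation was 0.48 for the 13 other cycle genes tested and 0.42 for all tested genes. Counted gene length went with the deviation of Control 3 weakly: the correlation across genes with log length was -0.09 (Spearman -0.20) over the 10950 tested genes and -0.29 (Spearman -0.28) over the 48 tested genes of the pathway, as a description, since all points share the same libraries. In 5 bins of counted length, from shortest to longest, the median deviation of Control 3 was 0.17, 0.08, -0.06, -0.09 and -0.24 over all tested genes. The part of length in these values was not tested.

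**Figure D3:**
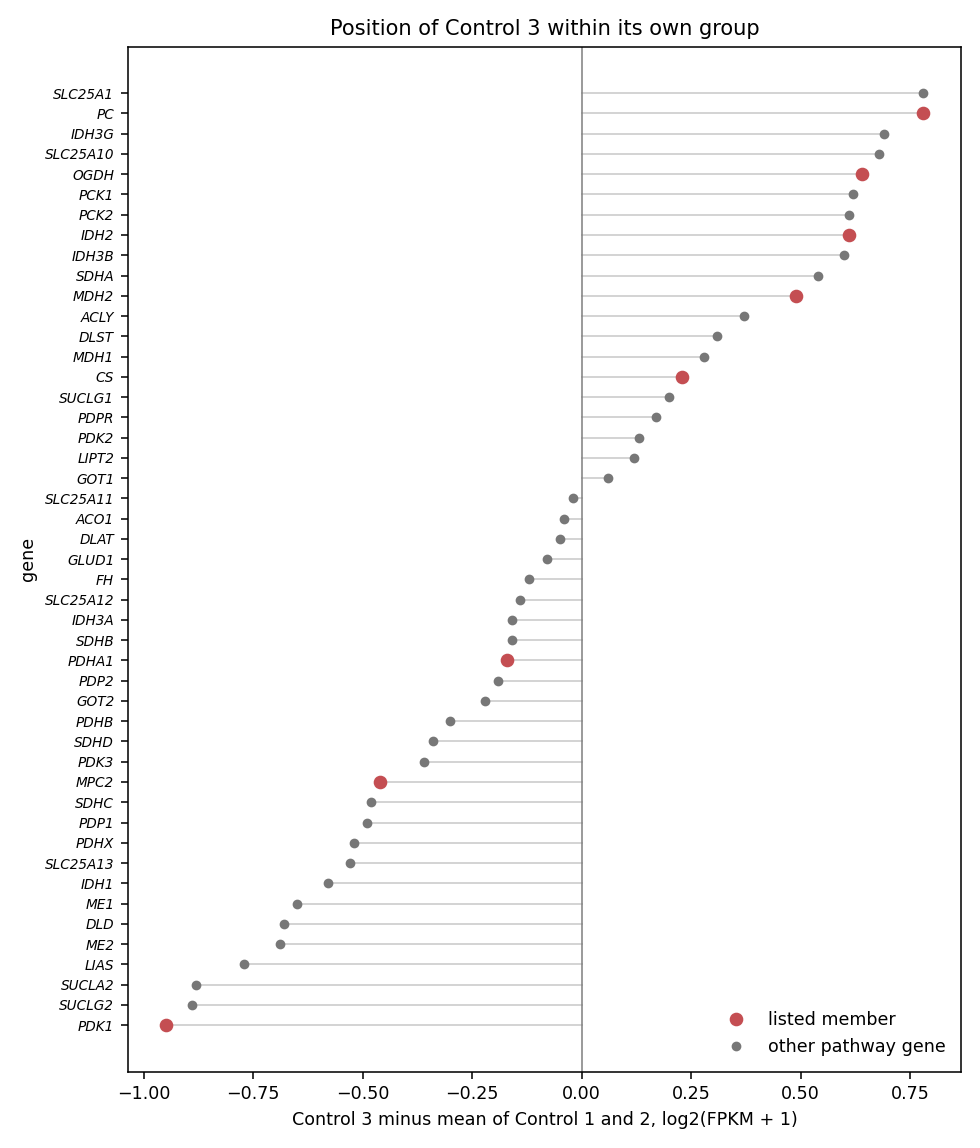
Difference in log2(FPKM + 1) between Control 3 and the mean of Control 1 and Control 2 (horizontal axis) for 47 tested pathway genes, sorted; red points are the 8 listed members and grey points the other pathway genes. PC and OGDH lie near the upper end and PDK1 at the lower end, while PDHA1 lies close to 0.

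The rest of the pathway was read from a list of 43 further genes, of which 42 matched a row and 40 were tested. LIPT1, like MPC1, had no identifier to match a row by, and OGDHL and ME3 were below the minimum level. Over 6 libraries 0 of the 40 passed in limma, and the median log2 difference was -0.03. An unadjusted p under 0.05 was found in 3 of the 40, beside 4.72% of all tested genes. Of the 9 other genes of the pyruvate dehydrogenase complex and its regulators, 4 were higher and 5 lower in MT (median -0.08). Of the 13 other cycle genes, 7 were higher and 6 lower (median 0.00). Of the 16 genes of side entry, exit and shuttles, 7 were higher and 9 lower (median -0.01), and this group held all 3 genes with an unadjusted p under 0.05. Without Control 3 the median of the 40 genes was -0.08, and 17 of them had an unadjusted p under 0.05, beside 36.2% of all tested genes. The medians of these 3 groups were then -0.11, 0.06 and -0.08. Without Control 3, 1 of the 40 genes passed as higher in MT (PCK2) and 2 as lower (IDH1 and LIAS). Of all tested genes, 4.28% then passed as higher and 6.62% as lower.

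PCK2, the mitochondrial enzyme that draws oxaloacetate out of the cycle as phosphoenolpyruvate, differed most. PCK2 (ENSSSCG00000002009, chromosome 7, 75187195 to 75197613) was at 27.6, 29.7 and 44.3 FPKM in Control 1 to 3 and at 83.5, 79.6 and 67.9 in MT 1 to 3. Every MT library stood above every Control library, by a gap in FPKM larger than the range within either group. On the log2(FPKM + 1) scale the gap was smaller than the range within Control. The means were 33.9 ± 9.07 and 77.0 ± 8.13 FPKM (SD, n = 3), a log2 difference of 1.19 (SE 0.19, interval 0.73 to 1.64), with a limma adjusted p of 0.29 over all genes tested. Without Control 3 the difference of PCK2 was 1.39 (SE 0.10, limma adjusted p 0.0033), in a fit that left out a library singled out from these same values. Leaving out any other library gave 1.06 to 1.27 with adjusted p of 0.61 to 1.0. Its cytosolic counterpart PCK1 was at 2.0, 2.08 and 3.67 FPKM in Control against 3.43, 2.41 and 5.16 in MT, and overlapped. Its log2 difference was 0.37 over 6 libraries and 0.58 (limma adjusted p 0.12) without Control 3.

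On the way out of the cycle toward cytosolic acetyl-CoA, ACLY splits exported citrate. ACLY (chromosome 12, 20796678 to 20841301) was at 59.3, 61.3 and 78.4 FPKM in Control 1 to 3 and at 49.5, 45.0 and 54.2 in MT 1 to 3. The groups did not overlap. The log2 difference was -0.41 (SE 0.14, unadjusted p 0.026, limma adjusted p 0.92), or -0.28 (adjusted p 0.073) without Control 3. The citrate carrier SLC25A1 overlapped, at 58.0, 58.4 and 100.6 FPKM in Control against 62.9, 54.4 and 69.6 in MT. Its log2 difference was -0.17 (SE 0.23) over 6 libraries and 0.09 (SE 0.10) without Control 3.

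Cytosolic ACO1, an aconitase that doubles as an iron sensor, was at 238.1, 236.7 and 231.5 FPKM in Control 1 to 3 and at 198.6, 186.6 and 213.3 in MT 1 to 3. All MT values lay below a tight Control group, with a log2 difference of -0.24 (SE 0.10, unadjusted p 0.045, limma adjusted p 1.0). Control 3 was close to the other Control libraries here, and the difference without it was -0.25 (adjusted p 0.065).

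Of the settings run, IDH1 and LIAS passed in limma only without Control 3. IDH1, the cytosolic NADP-linked isocitrate dehydrogenase, was at 58.7, 56.4 and 38.2 FPKM in Control 1 to 3 and at 45.8, 47.0 and 48.9 in MT 1 to 3. Its log2 difference was -0.09 (SE 0.17) over 6 libraries and -0.28 (SE 0.07, limma adjusted p 0.044) without Control 3. LIAS, which makes the lipoate that pyruvate and oxoglutarate dehydrogenase need, was at 4.83, 5.31 and 2.57 FPKM in Control against 2.99, 3.53 and 3.56 in MT. Its difference was -0.22 (SE 0.23) over 6 libraries and -0.48 (SE 0.10, adjusted p 0.036) without Control 3. In both genes the library left out lay below all 3 MT libraries.

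The other genes whose groups did not overlap had small differences. PDPR, a regulatory subunit of the phosphatase that reactivates pyruvate dehydrogenase, was at 10.4, 10.6 and 11.9 FPKM in Control against 13.8, 12.4 and 12.7 in MT, for a log2 difference of 0.22 (SE 0.11) and 0.28 (adjusted p 0.055 in limma) without Control 3. The catalytic phosphatase subunit PDP1 overlapped through Control 3 alone, with 11.3, 11.7 and 7.90 FPKM in Control against 8.32, 10.1 and 8.21 in MT. Its log2 difference was -0.18 (SE 0.17) over 6 libraries and -0.35 (SE 0.10, limma adjusted p 0.061) without Control 3. DLAT, the acetyl-transferring core of the dehydrogenase complex, was at 45.1, 46.6 and 44.2 FPKM in Control against 42.0, 42.0 and 43.6 in MT (log2 difference -0.09, SE 0.09). GOT1, the cytosolic aspartate aminotransferase of the malate-aspartate shuttle, was at 28.4, 27.6 and 29.3 FPKM in Control against 31.0, 30.2 and 32.6 in MT (log2 difference 0.13, SE 0.10). SLC25A11, the oxoglutarate and malate carrier of the same shuttle, was at 2.12, 1.88 and 1.95 FPKM in Control against 1.46, 1.68 and 1.69 in MT (log2 difference -0.19, SE 0.11), on 115 to 152 reads. In all, 7 of the 40 genes did not overlap, 3 higher and 4 lower in MT, beside 11.2% of all tested genes.

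**Figure D4:**
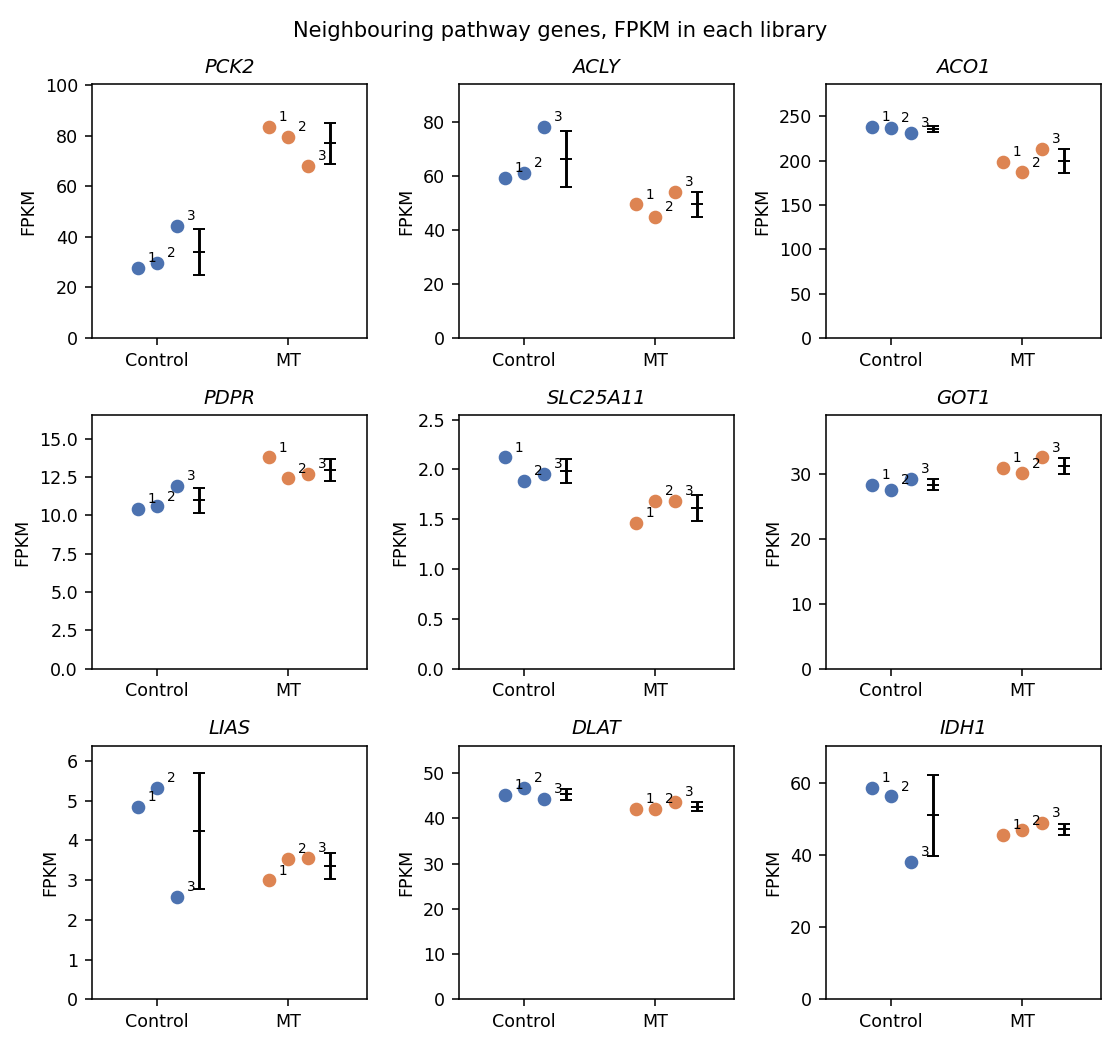
FPKM (vertical axis, from 0, a separate scale for each gene) of the 9 other pathway genes that did not overlap between groups or passed without Control 3; points carry the replicate number and the bar is the mean ± SD (n = 3). PCK2 shows the widest gap, with 27.6 to 44.3 FPKM in Control against 67.9 to 83.5 in MT, while in LIAS and IDH1 Control 3 lies below the MT libraries.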

How the data were processed

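RNA of 3 Control and 3 MT libraries was sequenced. The deposited table gives FPKM computed by the authors, fragments scaled to gene length and library size, 1 column per library. Per the submitters' processing notes, HISAT2, featureCounts (Subread) and bcl2fastq were used with the build Sscrofa11.1, without versions. The annotation release, the strand setting and the scaling across libraries were not given in the sources used. Since FPKM is relative to the library's sum, a change in abundant transcripts shifts every other gene, and reads from gene copies or overlapping genes may be misassigned.

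Symbols were matched by Ensembl identifier (13173 of 20731 genes), and coordinates by symbol from RefSeq of Sscrofa11.1. No sequences were used here. Reads were recovered from the steps of low FPKM values. All 10950 tested genes gave whole reads within 0.01. Between libraries of the same group, the chi-square of the reads was 6.4 to 150.2 for each degree of freedom, where sampling alone gives 1, and all 6 were kept as separate libraries. Where the 6 read numbers of a gene share a divisor, the true numbers and the true counted length may be larger.

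Genes averaging 1 FPKM or more were tested on the log2(FPKM + 1) scale using limma 3.58.1 under R 4.3.3 (variance trend, group as the only term, two-sided), with Benjamini-Hochberg adjustment over 10950 genes and a threshold of 0.05. This scale understates changes of low genes. Within-library ratios were compared by exact permutation, and the planned ratio of MPC1 to MPC2 was not run, since MPC1 matched no row. The model was also run on simulated data, and the outcome is not given here. Figures and tables used Python 3.11.15.

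The members, the further pathway list, the markers and the rule for naming genes were chosen with earlier results of these data known. The rule named all members, and those other genes that passed with or without Control 3 or did not overlap between groups. PCK1, SLC25A1, PDP1 and the subunits and family members set beside them were added for comparison after their values were seen. Of the further list, 1 gene is counted but not reported here by name. The alternatives changed the pseudocount, the filter, the scaling or the variance model, or used limma voom on recovered reads, a replicate block or 5 of the 6 libraries.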

Additional observations from a re-analysis of the deposited data

How the results depend on the processing

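With each library left out in turn, the number of all genes past the threshold ran from 0 to 1194 and that of the 40 other pathway genes from 0 to 3, both highest without Control 3 and 0 without any other library. The members gave 0 in every setting run, with 7 to 9 of them tested (7 with the filter at 5 FPKM, which left out MPC2). With a library left out, their log2 differences ran from -0.08 to 0.17 for MPC2, -0.00 to 0.09 for PDHA1, -0.44 to 0.04 for PDK1, -0.15 to 0.28 for PC, -0.18 to -0.06 for CS, -0.12 to 0.22 for IDH2, -0.21 to 0.13 for OGDH and -0.16 to 0.09 for MDH2. The difference of IDH1 ran from -0.28 to 0.02 and that of the log2 ratio of PC to PDHA1 from -0.24 to 0.29. Thus of the 8 members only CS kept its direction in all 6 of these fits. Among the other settings 1 value changed sign, IDH2 at -0.01 with median ratio scaling. The causes were not tested. PDK4 entered the test only with no filter on low values, with a difference of -0.01. Libraries with the same replicate number did not all deviate together (correlation of deviations -0.44 for number 1, 0.63 for number 2 and 0.34 for number 3, and Control 1 and Control 3 went best with another number), and with the replicate block 0 of all genes, 0 members and 0 other pathway genes passed, as without it. Counting error limits PDK4, with 4 to 18 reads in a library. A p that misses the threshold does not show that levels were equal, and the 95% intervals give what these libraries leave possible.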
